A study of Mus musculus with 4 samples.

Results

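The genes described here are 9 transcription factors that direct the formation of myeloid and dendritic cells: Spi1, Irf4, Irf8, Batf3, Cebpa, Cebpb, Ikzf1, Klf4 and Zeb2. Every probe set that the platform annotation gives to exactly 1 of these symbols was taken, which yielded 13 probe sets out of 20380 with a single symbol (12393 genes in all). Irf4, Irf8, Cebpb and Klf4 had 2 probe sets each and the other 5 genes had 1. No probe set with several symbols included a member.

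The arrays carried RNA of sorted mouse Langerhans cells, the dendritic cells of the epidermis, with a purity of 95% stated for the sort in the series' design. Mice were injected i.p., and cells were taken 24 h later. The 2 TCDD samples came from mice given 10 µg of TCDD (2,3,7,8-tetrachlorodibenzo-p-dioxin, which binds the aryl hydrocarbon receptor, AhR). Per the labels, 100 µl was given, in oil for TCDD 1 and in DMSO and oil for TCDD 2. Control 1 received 100 µl of DMSO and olive oil without TCDD. Control 2 is a control by its title and description, while its treatment protocol names TCDD, and the first 2 fields were followed. TCDD 2 and control 2 were from back skin, and the labels of TCDD 1 and control 1 name no site, a difference called the preparation here. The sources used here give no strain, sex or age and do not say whether mice were pooled, so the spread between arrays may be technical.

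Lineage transcription factors bind regulatory DNA in combinations. Spi1 encodes PU.1, an ETS protein needed for myeloid and dendritic cells, and it pairs on DNA with Irf4 or Irf8, interferon regulatory factors that bind such composite sites. Batf3 is a leucine zipper protein that joins the same interferon regulatory factors. Cebpa and Cebpb are leucine zipper factors of granulocyte, monocyte and macrophage programmes. Ikzf1, Klf4 and Zeb2 are zinc finger proteins: Ikaros, a regulator of lymphoid and dendritic lineages, a factor of monocytes and of the skin barrier, and a repressor that also acts in monocytes and plasmacytoid dendritic cells.

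The study asked how TCDD changes gene expression in Langerhans cells. Promoters of 3 member genes are printed because 1 probe set of each (Irf4 1421173_at, the Batf3 probe set and Klf4 1417394_at) lay higher on both TCDD arrays than on both controls under each of the scalings applied below. The other probe sets of Irf4 and Klf4 did not. Each line holds the 250 bases before the RefSeq start (GRCm38.p6), on the strand of the gene. Capitals mark the core of the AhR response element, GCGTG, searched on both strands with overlapping matches allowed.
Irf4, chr13:30748983-30749232, plus strand: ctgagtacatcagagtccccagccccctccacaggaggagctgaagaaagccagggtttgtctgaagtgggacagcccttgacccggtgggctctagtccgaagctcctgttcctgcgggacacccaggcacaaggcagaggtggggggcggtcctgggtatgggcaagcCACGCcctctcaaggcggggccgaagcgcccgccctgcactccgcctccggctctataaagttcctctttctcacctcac
Batf3, chr1:191098164-191098413, plus strand: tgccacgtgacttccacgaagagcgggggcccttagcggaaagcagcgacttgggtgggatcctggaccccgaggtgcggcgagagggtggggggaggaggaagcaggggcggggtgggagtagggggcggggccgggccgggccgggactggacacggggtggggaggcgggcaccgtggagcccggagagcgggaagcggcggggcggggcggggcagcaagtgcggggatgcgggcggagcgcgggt
Klf4, chr4:55532476-55532725, minus strand: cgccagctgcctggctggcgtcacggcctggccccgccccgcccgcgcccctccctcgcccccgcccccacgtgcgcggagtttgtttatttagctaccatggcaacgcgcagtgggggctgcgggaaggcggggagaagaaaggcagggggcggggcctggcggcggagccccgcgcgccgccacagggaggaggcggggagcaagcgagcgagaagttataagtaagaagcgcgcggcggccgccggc

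The core occurred once before Irf4, on the opposite strand, with 75 bases between it and the start. The Batf3 and Klf4 windows held no match, and had GC contents of 76.0% and 74.0%, with 63.6% for Irf4. The promoter table held 8 of the 9 genes, all but Spi1, with 13 windows. The core was in 4 of these windows, of 3 genes (Irf4, Cebpb and Zeb2). The Zeb2 windows with the core overlap and hold the same match, which is thus counted more than once. Over all 32851 windows of this length, 28.2% held it. A match is a run of letters and was not tested as a binding site.

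Langerhans cell genes differed in brightness. Cd207, which encodes langerin, read 5343 and 2155 on TCDD 1 and 2, against 2119.9 and 7210.5 on controls 1 and 2. Epcam, an adhesion protein of Langerhans cells, read 7541 and 8362 on TCDD 1 and 2, against 8717 and 10032 on controls 1 and 2. Cdh1, which encodes E-cadherin, and Itgax, which encodes CD11c, were dimmer, at 138 to 207 and 115 to 231 over the 4 arrays. All 8 Langerhans cell markers examined passed the expression filter explained below. Control 1 stood apart in RNA quality: the 3′ to 5′ signal ratio of the actin control was 49.7 there, against 3.48 on TCDD 1, 7.71 on TCDD 2 and 4.64 on control 2. The ratio is a usual gauge of how complete the amplified RNA was. Of the 8 member probe sets tested, control 1 was the lowest array for 5 (62.5%), compared with 31.7% of all 13576 probe sets tested. The part of RNA quality in the member values was not tested.

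Signals are MAS5 intensities as deposited, on a linear scale common to the 4 arrays. Probe sets differ in how well they hybridise, so differences in brightness between genes are no measure of their RNA amounts. Treatment and preparation were compared across arrays within a probe set. The brightest probe sets weigh most in the summed signals of cell markers. A probe set entered the test when its geometric mean signal over the 4 arrays was at least 115. This left 8 of the 13 member probe sets, from 6 genes. Cebpa, Ikzf1 and Zeb2 had no probe set above the filter, and neither did the second probe sets of Cebpb and Klf4. These 5 are described by their signals alone.

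**Figure D1:**
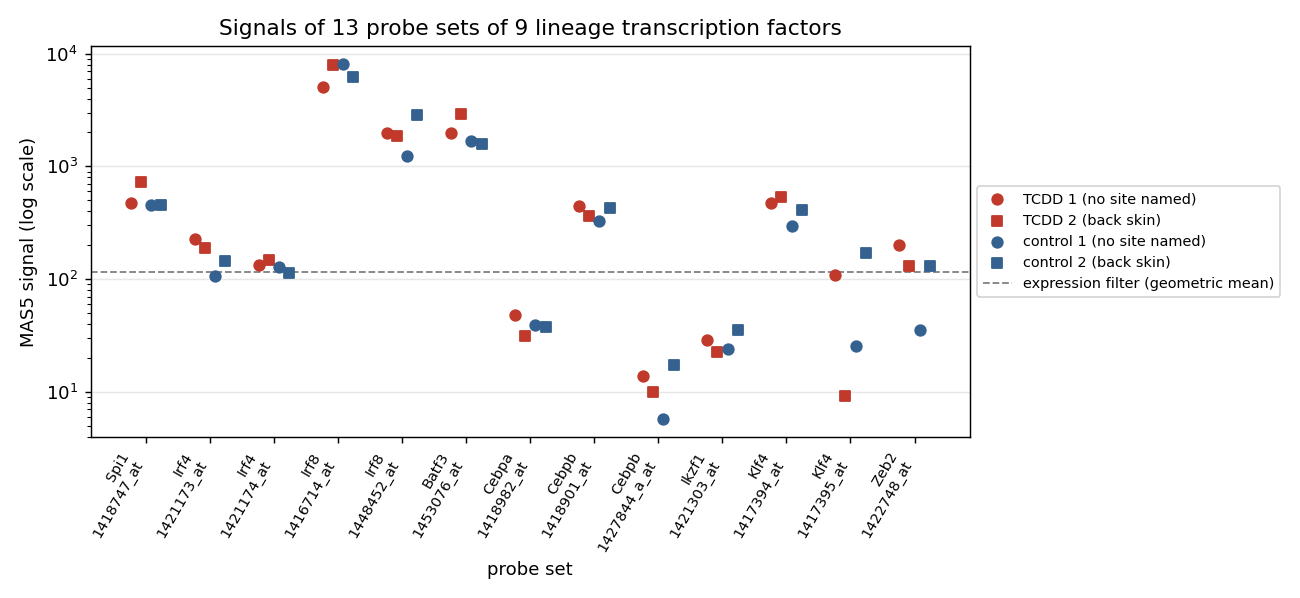
Signal of each of the 13 probe sets (x axis) on the 4 arrays (y axis, MAS5 intensity, log scale), 1 point per array, TCDD in red and control in blue, circles for no site named and squares for back skin. The dashed line is the filter, a geometric mean of 115; Irf8 1416714_at spans 5069 to 8149.9, while the second Klf4 probe set spans 9.2 to 169.8.

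None of the 6 genes that could be tested had a TCDD difference past the test. Over all probe sets, 0 of 13576 (0%) had an adjusted p under 0.05 for TCDD against control (limma with Benjamini-Hochberg adjustment), and 199 (1.47%) had an unadjusted p under 0.05. Of the 8 tested member probe sets, 0 passed and 0 had an unadjusted p under 0.05 (smallest limma adjusted p = 0.9999). With 2 arrays per group the median 95% interval of a member, not adjusted for the number of tests, reached 0.81 log2 units to either side. Larger changes could also go undetected: the largest TCDD difference of any tested probe set, 2.55, did not pass the adjusted test. Both TCDD arrays lay above both controls for 5 of the 8, from 4 genes (Spi1, Irf4, Batf3 and Klf4), compared with 12.4% of all probe sets tested. Both lay below both controls for 0 of the 8, compared with 13.2% of all. The members' median log2 difference was 0.30, and that of all tested probe sets was -0.01. These counts depended on scaling. When the arrays were quantile normalized or centred on their medians, 3 of the 8 remained above both controls (12.5% and 12.2% of all probe sets): Irf4 1421173_at, Batf3 and Klf4 1417394_at.

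**Figure D2:**
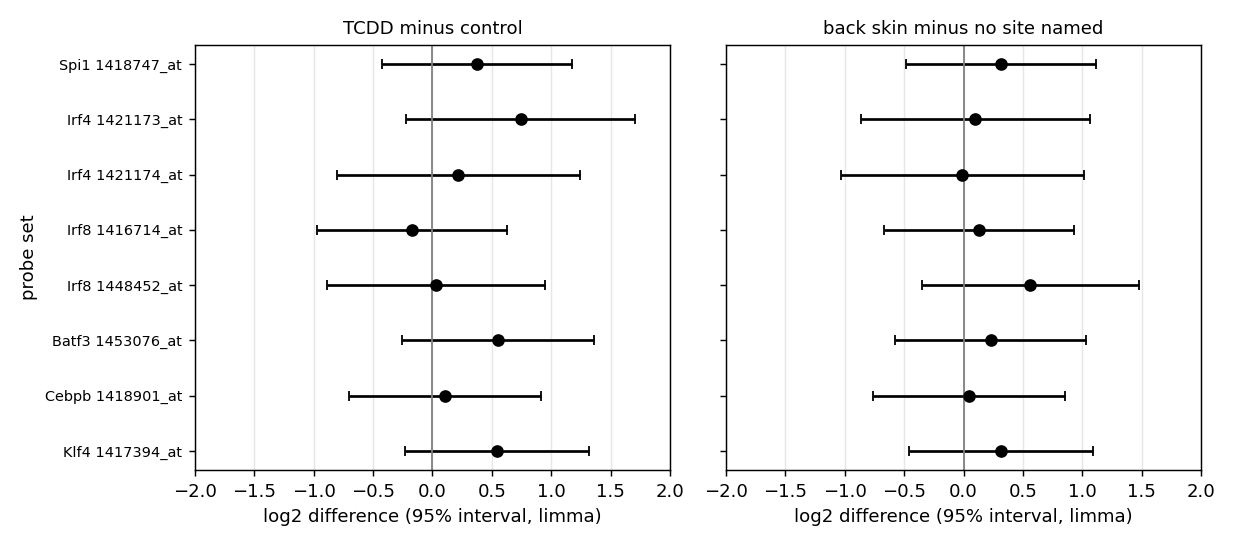
Fitted log2 difference with its 95% interval (x axis) for the 8 tested probe sets (y axis), TCDD minus control on the left and back skin minus no site named on the right, 2 arrays per group. Every interval crosses 0; the TCDD differences run from -0.17 for Irf8 1416714_at to 0.74 for Irf4 1421173_at.

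Among the factors at the head of the myeloid programme, Spi1 was measured by 1 probe set. It read 473 on TCDD 1 and 728 on TCDD 2, against 452 on control 1 and 454 on control 2. TCDD 2 stood above the other 3 arrays, which lay within a few percent of each other. The log2 difference was 0.38 ± 0.35 (SE, n = 2 per group; limma adjusted p = 0.9999). The log2 ratio of TCDD to control was 0.68 in back skin and 0.07 with no site named. Without TCDD 2 the difference was 0.06. Under the other scalings TCDD 1 no longer exceeded both controls.

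The leucine zipper factors of the C/EBP family had overlapping groups in every probe set. Cebpb 1418901_at, the brighter probe set of this factor of inflammatory and macrophage genes, read 445 and 364 on TCDD 1 and 2, against 328 and 427 on controls 1 and 2. Its highest array was TCDD 1 and its lowest control 1, so the preparations disagreed, with log2 ratios of -0.23 in back skin and 0.44 with no site named. The difference of 0.11 ± 0.35 (SE, n = 2 per group; limma adjusted p = 0.9999) turned negative without control 1 (-0.09) or without TCDD 1 (-0.04).

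The second Cebpb probe set, 1427844_a_at, read 13.9 and 9.9 on TCDD 1 and 2, against 5.7 and 17.3 on controls 1 and 2. All 4 values lay below the 20th percentile of their arrays, 36.6 to 40.6, where a fold has little meaning. Cebpa, which starts granulocyte and monocyte differentiation, read 47.6 and 31.0 on TCDD 1 and 2, against 39.4 and 37.4 on controls 1 and 2. Cebpa was thus dim on every array, at or near that percentile, and its groups overlapped.

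The interferon regulatory factors were represented by 2 probe sets each, which differed in behaviour between the genes. For Irf4, a factor of dendritic cell maturation and migration that is also made in activated lymphocytes, both differences were above 0, without passing the test. Irf4 1421173_at read 228 and 191 on TCDD 1 and 2, against 106.5 and 146 on controls 1 and 2. The groups did not overlap, and the TCDD to control fold was 1.31 in back skin and 2.14 with no site named. The log2 difference was 0.74 ± 0.42 (SE, n = 2 per group; limma adjusted p = 0.9999), from 0.52 without control 1 to 0.97 without control 2. Over all 4 arrays this was the largest of the 8 differences, at signals near the filter. The order was not stable: Batf3 had the larger value without control 1 (0.60) and without TCDD 1 (0.83, against 0.62 for Irf4 1421173_at).

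Irf4 1421174_at read 133 and 149 on TCDD 1 and 2, against 129 and 113 on controls 1 and 2. TCDD 1 and control 1 were nearly level, and TCDD 1 did not exceed both controls under the other scalings. The difference was 0.22 ± 0.45 (SE, n = 2 per group; limma adjusted p = 0.9999).

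Irf8 is needed for monocytes and for the conventional dendritic cells that cross-present antigen. Irf8 1416714_at read 5069 and 7908 on TCDD 1 and 2, against 8149.9 and 6226.5 on controls 1 and 2. TCDD 1 was the lowest array and control 1 the highest, and the groups overlapped. Irf8 1448452_at, whose target comes from the same sequence record in the annotation, ran the other way. It read 1980.5 and 1865 on TCDD 1 and 2, against 1235 and 2863 on controls 1 and 2. Here control 1 was the lowest array and control 2 the highest.

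In back skin the log2 ratio of TCDD to control was 0.34 for Irf8 1416714_at and -0.62 for Irf8 1448452_at. With no site named it was -0.69 for Irf8 1416714_at and 0.68 for Irf8 1448452_at. The probe sets of Irf8 therefore disagreed in direction in both preparations. The fitted differences were -0.17 ± 0.35 and 0.03 ± 0.40 (SE, n = 2 per group; limma adjusted p = 0.9999 for each). Each turned its sign without control 1, to 0.02 and -0.57, and without TCDD 1, to 0.15 and -0.01.

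Batf3, a partner of these factors that is required for cross-presenting dendritic cells, read 1967.5 and 2906 on TCDD 1 and 2, against 1693 and 1574 on controls 1 and 2. Both TCDD arrays were above both controls, TCDD 2 by the wider margin, with a fold of 1.85 in back skin and 1.16 with no site named. The log2 difference was 0.55 ± 0.35 (SE, n = 2 per group; limma adjusted p = 0.9999). It was 0.27 without TCDD 2 and 0.83 without TCDD 1.

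Among the zinc finger factors, Klf4 1417394_at read 478 and 533 on TCDD 1 and 2, against 294 and 408 on controls 1 and 2. Both TCDD arrays exceeded both controls, and the fold was 1.30 in back skin and 1.63 with no site named. The difference was 0.54 ± 0.34 (SE, n = 2 per group; limma adjusted p = 0.9999), and 0.31 without control 1. Klf4 is also a keratinocyte gene. All 6 keratinocyte markers examined had a probe set and 5 were tested, with 0 past the test and 0 listed at 0. Their summed signal was 1077 and 1244.5 on TCDD 1 and 2, against 1019.6 and 974.9 on controls 1 and 2. Both TCDD arrays lay above both controls for 0 of the 5 tested markers, compared with 962 of 8413 genes. The sums of the controls held low single values, such as Dsp at 160 on control 2 and Krt1 at 18.9 on control 1. Krt14, the basal keratin, read 173 and 249.5 on TCDD 1 and 2, against 177 and 166 on controls 1 and 2. Krt5, its partner keratin, read 72.5 and 156 on TCDD 1 and 2, against 83.7 and 211.5 on controls 1 and 2. The part of keratinocyte RNA in the Klf4 values was not tested.

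Klf4 1417395_at, built on the same sequence record, read 108 and 9.2 on TCDD 1 and 2, against 25.7 and 170 on controls 1 and 2. It was the most variable of the 13 probe sets and lay below the filter, with TCDD 2 and control 1 under the 20th percentile of their arrays, so the size of its ratios has little meaning. Its log2 ratio was -4.21 in back skin and 2.08 with no site named, so it did not share the direction of the brighter probe set in back skin.

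Zeb2, which helps to set monocyte and plasmacytoid dendritic cell fate, read 200.3 and 131 on TCDD 1 and 2, against 35.6 and 132 on controls 1 and 2. Control 1 was low, beneath that array's 20th percentile of 36.6, and TCDD 2 and control 2 were level. Its geometric mean of 105 was just under the filter, so no test was made. The log2 ratio of 2.49 with no site named rested on the control 1 value, and that in back skin was -0.01.

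Ikzf1 read 28.6 and 22.6 on TCDD 1 and 2, against 23.9 and 35.6 on controls 1 and 2. All 4 signals lay under the 20th percentile of their arrays and the groups overlapped. Ikaros is strongly made in T cells. The summed signal of the T cell markers was highest on control 2 and lowest on TCDD 2, while Cd3g, Cd3d and Klrk1 were lowest on control 1. Of 7 T cell markers 6 had a probe set, 5 were tested and 0 passed or were listed at 0. Their summed signal was 1146 and 530.5 on TCDD 1 and 2, against 569 and 1755 on controls 1 and 2. Cd3e, part of the CD3 complex, read 387 and 113 on TCDD 1 and 2, against 197.5 and 471 on controls 1 and 2. Cd3g, another CD3 chain, read 234 and 89.5 on TCDD 1 and 2, against 71.0 and 471 on controls 1 and 2. The part of T cell RNA in the Ikzf1, Irf4 and Batf3 values was not tested. In a sorted bulk sample, fewer cells of a kind and less RNA per cell cannot be told apart.

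**Figure D3:**
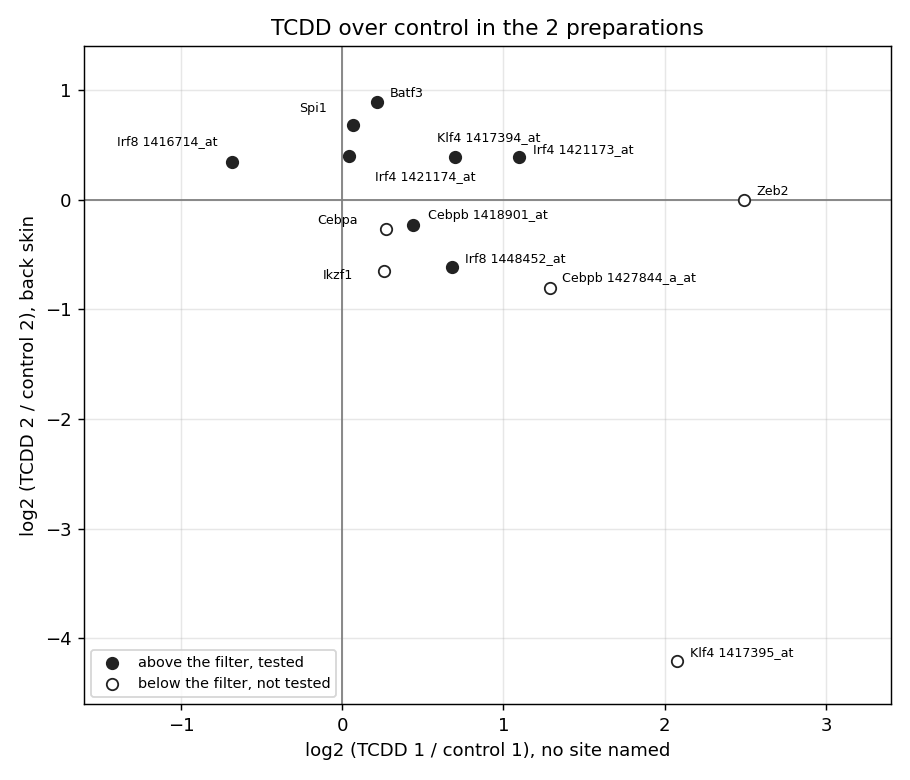
Log2 ratio of TCDD to control for each of the 13 probe sets in back skin (y axis, TCDD 2 over control 2) and with no site named (x axis, TCDD 1 over control 1), 1 pair of arrays per axis; filled points were tested and open points lay below the filter. The 5 probe sets of Spi1, Irf4, Batf3 and Klf4 in the upper right were higher after TCDD in both preparations, and 8 had opposite signs.

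Across preparations, 5 of the 8 tested probe sets were higher after TCDD in both, 0 were lower in both and 3 had opposite signs. Among all 13576 probe sets, 2616 were higher in both, 2896 lower in both and 8064 opposite. The 5 probe sets are the same that lay above both controls. The 5 members below the filter each had opposite signs in the 2 preparations. The share among all probe sets below the filter was not taken.

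Irf4 and Irf8 had 2 probe sets above the filter, and the ratio of the brighter to the dimmer signal was taken on each array and compared across arrays. For Irf8 this ratio was 2.56 and 4.24 on TCDD 1 and 2, against 6.60 and 2.18 on controls 1 and 2. It was highest on control 1, the array with the highest actin ratio, and next highest on TCDD 2, which had the second highest. The other arrays had the reverse order: the actin ratio was lower on TCDD 1 (3.48) than on control 2 (4.64), and the Irf8 ratio was higher. The part of RNA quality in these ratios was not tested. For Irf4 it was 1.71 and 1.28 on TCDD 1 and 2, against 0.83 and 1.28 on controls 1 and 2, so control 1 was lowest. Across the arrays the ratio varied 3.03-fold for Irf8 and 2.07-fold for Irf4. No ratio is given for Cebpb and Klf4, whose second probe sets lay below the filter.

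**Figure D4:**
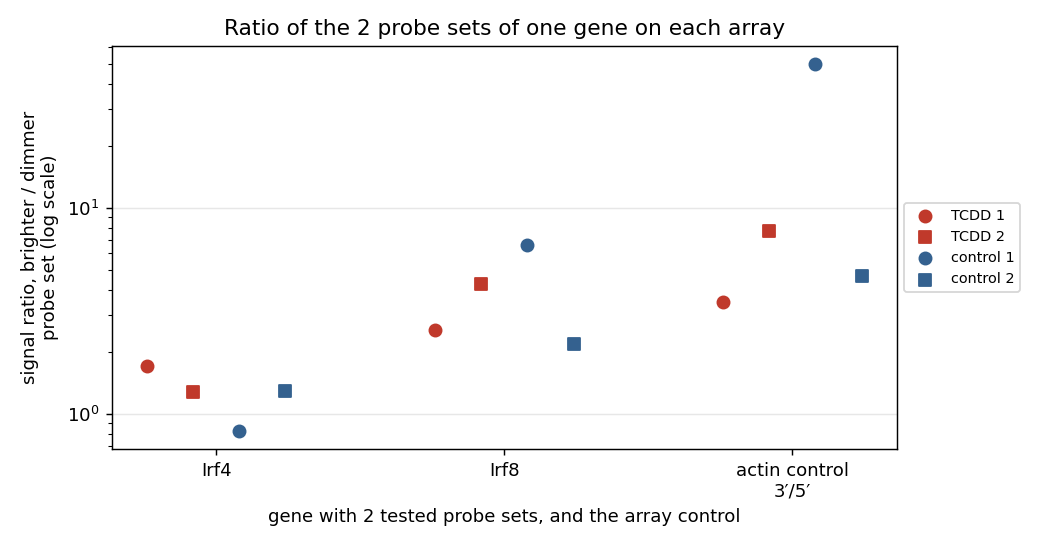
Ratio of the brighter to the dimmer probe set (y axis, log scale) for the 2 genes with 2 tested probe sets, beside the 3′ to 5′ ratio of the actin control (x axis), 1 point per array, TCDD in red and control in blue. Control 1 is the highest array for Irf8 (6.60) and actin (49.7) and the lowest for Irf4 (0.83).

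The arrays from back skin were compared with those whose labels name no site, a contrast in which site and experiment cannot be told apart. The descriptions of the controls give different experiment dates. Whether the TCDD array and the control of a skin site label came from the same experiment is not stated. Over all probe sets 0 of 13576 (0%) passed the test (limma), and 274 had an unadjusted p under 0.05. Of the 8 tested member probe sets 0 passed and 0 had an unadjusted p under 0.05 (smallest limma adjusted p = 0.9994). Both back skin arrays were above both others for 0 of the 8 members, compared with 16.1% of all probe sets, and below for 0, compared with 15.9%. The differences ran from -0.01 for Irf4 1421174_at to 0.56 ± 0.40 for Irf8 1448452_at (SE, n = 2 per group). Irf8 1448452_at read 1865 and 2863 on TCDD 2 and control 2 from back skin, against 1980.5 and 1235 on TCDD 1 and control 1, with the wider gap between the controls. Spi1 and Klf4 1417394_at both differed by 0.31, with errors of 0.35 and 0.34.

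Other transcription factors of these lineages gave the context. Of 37 listed, 33 had a probe set with a single symbol and 24 were tested, each gene by its brightest probe set. None passed the test or had an unadjusted p under 0.05 (limma), while 106 of all 8413 genes had such an unadjusted p. After TCDD, 7 were higher and 5 lower in both preparations, compared with 1509 and 1918 of the 8413 genes. Both TCDD arrays lay above both controls for 6 and below them for 5, compared with 962 and 1186 of the 8413 genes. The median log2 difference was 0.10, compared with -0.03 over the 8413 genes. Id2, an inhibitor of E proteins that Langerhans cells require, read 11268 and 12852 on TCDD 1 and 2, against 9687 and 9916 on controls 1 and 2. Its groups did not overlap (0.30 ± 0.29, SE, n = 2 per group). Relb, an NF-kB subunit of dendritic cells, read 2520.1 and 2243 on TCDD 1 and 2, against 1113 and 3017 on controls 1 and 2. Control 1 was the low array for Relb, as for Irf8 1448452_at.

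Cebpd, a relative of Cebpb, differed by 0.40 ± 0.40, and Nfil3, a leucine zipper factor of dendritic and lymphoid cells, by -0.34 ± 0.36 (SE, n = 2 per group). The groups of Cebpd overlapped, and both TCDD arrays of Nfil3 lay below both controls. Runx3, a factor that Langerhans cells need, lay below the filter at 36.2 and 70.7 on TCDD 1 and 2, against 30.6 and 108 on controls 1 and 2. Klf2, a relative of Klf4, was also below it, at 84.9 and 171 on TCDD 1 and 2, against 53.9 and 168 on controls 1 and 2. Gfi1, a factor of granulocyte development, read 3.5 to 6.5.

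Known targets of PU.1 or C/EBP factors differed in sign among themselves. Of 18 listed, 17 had a probe set and 14 were tested. None passed the test and 1 had an unadjusted p under 0.05 (limma), as did 106 of all 8413 genes. In both preparations 3 were higher and 3 lower, compared with 1509 and 1918 of the 8413 genes. Both TCDD arrays lay above both controls for 2 targets (Ctss and Il1b) and below them for 2 (Csf1r and Csf2ra). The same held for 962 and 1186 of the 8413 genes. The median log2 difference was -0.11. Csf1r, the CSF-1 receptor, read 8469 and 9376 on TCDD 1 and 2, against 11347.5 and 11699 on controls 1 and 2. Both TCDD arrays of Csf1r were the lower ones (-0.37 ± 0.29, SE, n = 2 per group). Csf2ra, a chain of the GM-CSF receptor, differed by -0.44 ± 0.36, again with both TCDD arrays below both controls. Fcgr1, an Fc receptor, differed by -0.34 ± 0.45, Lyz2, lysozyme, by -0.35 ± 0.47 and Ciita, the activator of class II genes, by 0.22 ± 0.45. Itgam, an integrin chain of myeloid cells, lay below the filter, at 8.9 and 15.3 on TCDD 1 and 2, against 37.1 and 20.8 on controls 1 and 2. The 1 target with an unadjusted p under 0.05 was Il1b, named after its values were seen (0.91 ± 0.32, SE, n = 2 per group; limma adjusted p = 0.9999).

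Markers of further cells that use these factors differed in brightness. Of the B cell list, with 3 of 4 genes on a single-symbol probe set, 1 was tested, and the summed signal was 273 to 305 on the TCDD arrays and 273 to 275 on the controls. The tested gene was Ms4a1, whose groups overlapped. Cd79a read 62.4 and 86.8 on TCDD 1 and 2, against 124 and 108 on controls 1 and 2. Cd79b read 55.1 and 40 on TCDD 1 and 2, against 11.3 and 9.0 on controls 1 and 2. Both lay below the filter. Cd79b was under the 20th percentile on both controls, so the size of its ratios has little meaning. For granulocytes, S100a8 read 14.2 and 26.4 on TCDD 1 and 2, against 18.3 on each control. S100a9 read 43.5 and 74.1 on TCDD 1 and 2, against 49.8 and 49.5 on controls 1 and 2. Both lay below the filter, with S100a8 under the 20th percentile of every array. For monocytes and macrophages, Adgre1 read 1076 and 874 on TCDD 1 and 2, against 969.7 and 929 on controls 1 and 2, and their summed signal was 2207.5 and 2171 on TCDD 1 and 2, against 1729 and 2090.4 on controls 1 and 2. C1qa, a complement chain of macrophages, read 261 and 284 on TCDD 1 and 2, against 25.2 and 126 on controls 1 and 2. Its difference was 2.27 ± 0.59 (SE, n = 2 per group; limma adjusted p = 0.9999, unadjusted p = 0.00422), with control 1 the low array. The part of macrophage RNA in the Spi1, Klf4 and Zeb2 values was not tested. Of 4 listed markers of other dendritic cells, 2 had a probe set. Xcr1, a receptor of cross-presenting dendritic cells, read 164 and 189.5 on TCDD 1 and 2, against 181 and 368 on controls 1 and 2. Cd209a read 145.5 and 210.6 on TCDD 1 and 2, against 220.7 and 124.7 on controls 1 and 2. The control from back skin was thus the highest array for Xcr1 and the lowest for Cd209a. The listed markers of melanocytes (Dct and Tyrp1 first), of fibroblasts and endothelium (Col1a1 and Col1a2 first) and of mast cells (Cpa3 and Kit first) had summed signals from 344 to 1134.5 per array, and 0 of them passed the test.

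Leaving out each array in turn left the sign of the TCDD difference of Spi1, both Irf4 probe sets, Batf3 and Klf4 1417394_at as it was, and turned that of Cebpb 1418901_at and both Irf8 probe sets. All TCDD arrays lay above all controls for 5 of the 8 member probe sets without control 1 and for 5 without TCDD 1. The count was 6 without TCDD 2 and 7 without control 2. The corresponding shares of all probe sets were 30.4%, 26.3%, 28.1% and 36.9%.

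The values also depended on which label of control 2 was followed. With control 2 counted as TCDD, as its treatment protocol has it, control 1 was the lone control and no member passed the test (smallest limma adjusted p = 0.241). Each difference was then taken from control 1 alone, the array with the highest actin ratio (49.7). The largest was that of Irf8 1448452_at, at 0.83, and Irf8 1416714_at was at -0.37. Irf4 1421173_at was at 0.80, Irf4 1421174_at at 0.02, Batf3 at 0.30, Spi1 at 0.25, Cebpb 1418901_at at 0.33 and Klf4 1417394_at at 0.68.

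**Figure D5:**
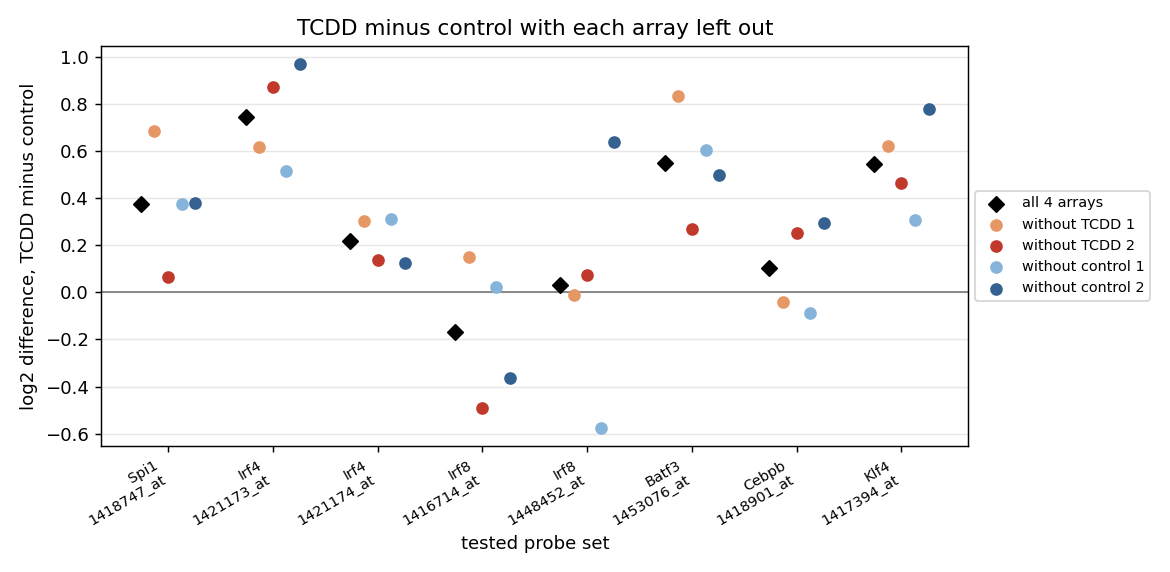
Log2 difference of TCDD minus control (y axis) for the 8 tested probe sets (x axis), over all 4 arrays (diamonds) and with each array left out (circles). The values of Spi1 run from 0.06 without TCDD 2 to 0.69 without TCDD 1, and those of Irf8 1448452_at from -0.57 without control 1 to 0.64 without control 2.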

How the data were processed

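The deposited values are signal intensities per probe set and array on a linear scale, made by the authors with affy and MAS5 per the submitters' processing notes. The sources used here name neither version nor settings. All 4 arrays had a mean of 500 once the 2% of probe sets at either end were trimmed, so they share a scale. Of 22690 probe sets, 64 were Affymetrix controls. Gene symbols come from the platform annotation, promoter sequences from RefSeq (GRCm38.p6).

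Signals were taken to log2. The 13576 probe sets at or above the 40th percentile of mean log2 signal (6.85) went into a limma fit (limma 3.58.1, R 4.3.3) of treatment plus preparation with eBayes trend, and p-values were adjusted by Benjamini-Hochberg over all of them, with a threshold of 0.05. Only 1 degree of freedom remains per probe set, and precision is limited by having 4 arrays. Replicate numbers follow accession order and pair nothing; the preparation term sets each TCDD array beside the control of the same skin site label. The members, lists and named genes were chosen with earlier results of these data known. Named genes were all member probe sets, 8 set lineage factors (1 is not reported here), 6 set targets and the first 2 markers of each list. Alternatives were other scalings, filters, offsets and floors, no trend, 1 factor, each array left out and control 2 counted as TCDD.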

Additional observations from a re-analysis of the deposited data

Results flagged for a closer look

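In 8 of the 13 probe sets the log2 ratio of TCDD to control had opposite signs in back skin and with no site named, each ratio from 1 pair of arrays. These differences between the preparations were not tested, since 1 array per treatment and preparation leaves no error. Of the 8 tested members 3 had opposite signs, compared with 8064 of all 13576 tested probe sets. The share among all probe sets below the filter was not taken. The difference of the ratios, back skin minus no site named, was 1.03 for Irf8 1416714_at and -1.30 for Irf8 1448452_at. It was -0.67 for Cebpb 1418901_at. Below the filter it was -0.54 for Cebpa, -2.09 for Cebpb 1427844_a_at, -0.91 for Ikzf1, -6.28 for Klf4 1417395_at and -2.50 for Zeb2. Each of these 5 had at least 1 array under its 20th percentile, so the sizes have little meaning. Control 1 was the lowest array for Irf8 1448452_at, both Cebpb probe sets and Zeb2, TCDD 2 for Cebpa, Ikzf1 and Klf4 1417395_at, and TCDD 1 for Irf8 1416714_at.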

How the results depend on the processing

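No member probe set passed the test for either comparison under any alternative run, with the smallest limma adjusted p at 0.241 for TCDD and 0.344 for the preparation. The number of all probe sets past the test was 0 to 285 for TCDD and 0 to 89 for the preparation with each array left out (12 without control 1, 285 without control 2, 89 without TCDD 1), in fits that assume the lone array of a group to vary like the others. It was 219 with control 2 counted as TCDD. The 5 member probe sets above both controls, an alternative set added after the data were seen, became 3 under quantile normalization and 3 under median centring. They became 3 of 6 with the filter at the 60th percentile, which removes both Irf4 probe sets. The share of all probe sets above both controls at that filter was not taken. With an array left out the count was 5 to 7.

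Of 102 alternative TCDD differences 6 turned their sign, all with an array left out: the range was -0.49 to 0.15 for Irf8 1416714_at, -0.57 to 0.64 for Irf8 1448452_at and -0.0862 to 0.30 for Cebpb 1418901_at. Of 94 for the preparation 12 turned. Under median centring Cebpb 1418901_at gave -0.0160. With an array left out the ranges were -0.21 to 0.67 for Batf3, -0.17 to 0.27 for Cebpb 1418901_at, -0.45 to 0.65 for Irf4 1421173_at, -0.21 to 0.19 for Irf4 1421174_at, -0.22 to 0.47 for Irf8 1416714_at, -0.0366 to 0.67 for Klf4 1417394_at and -0.0281 to 0.66 for Spi1. The cause was not tested. Arrays were paired by preparation, as a term of the fit, and not by replicate number, since the labels give none. Without the preparation term 0 probe sets passed for TCDD and no member's call changed.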
